A study of Mus musculus with 22 samples.

Results

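The blastocoel is the fluid-filled cavity of the mouse blastocyst, and 7 genes whose products move sodium and water were followed here, out of 21881 gene symbols counted. They were picked by symbol from the deposited count table. No measured value entered the rule, but the genes were chosen with earlier results of these data known. The genes were 5 aquaporins (Aqp1, Aqp3, Aqp8, Aqp9 and Aqp11) and 2 beta subunits of the sodium pump (Atp1b1 and Atp1b3). All 7 symbols were in the table.

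RNA was sequenced from 8 single mouse embryos at embryonic day 3.5 and from 14 libraries of 7 stem cell lines. The embryos were 4 Nanog-null, 2 heterozygous and 2 wild-type for Nanog, a transcription factor of the pluripotent epiblast, with females and males in equal number in each genotype. The heterozygous and wild-type embryos are called Nanog-bearing when pooled. The lines were 3 trophoblast stem (TS) lines, 2 extraembryonic endoderm (XEN) lines and 2 embryonic stem (ES) lines, all labelled wild-type for Nanog, with 2 technical replicate libraries per line taken at different passages. The TS lines were TS F1 and TS F2 (female) and TS M3 (male), the XEN lines were XEN M1 and XEN M2 (both male), and the ES lines were ES F1 (female) and ES M2 (male), so sex was not balanced over the lineages. The ES titles name a serum-free medium, and the other titles name none. TS, XEN and ES lines are grown as models of the trophectoderm, the primitive endoderm and the epiblast. The Nanog allele and the litter of each embryo are not given in the labels, so p-values measure only the spread between these embryos. Embryo libraries were made from amplified cDNA and line libraries with another kit, so embryos and lines were not compared with each other.

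Levels are in CPM, counts scaled to a library total of 1000000, and total counts were 14.8 to 32.2 M (mega-counts) in embryos and 8.20 to 23.7 M in line libraries. The targeted gene followed the labels: Nanog averaged 0.433 ± 0.153 CPM in Nanog-null embryos (SD, n = 4), 70.6 ± 24.1 CPM in heterozygous embryos (n = 2) and 122 ± 21.1 CPM in wild-type embryos (n = 2). The Nanog-null libraries lacked more of the genes that averaged at least 5 CPM in the other embryos. Of these, 570, 300, 133 and 809 had at most 3 counts in null F1, F2, M1 and M2, against 68 and 45 in heterozygous and 40 and 41 in wild-type embryos. Genes absent because of the genotype would enter this count too. By genes with any count the groups overlapped: 11118, 13660, 12434 and 12935 in these nulls, 12793 and 13175 in heterozygous and 13801 and 13242 in wild-type embryos (female, male). The line labels were checked against marker lists by summed CPM. Trophectoderm markers summed to 3311 to 11570 CPM in TS, 1577 to 2431 CPM in XEN and 218 to 334 CPM in ES libraries. Primitive endoderm markers summed to 2987 to 5281 CPM in TS, 59600 to 83210 CPM in XEN and 541 to 977 CPM in ES libraries. Epiblast markers summed to 646 to 1344 CPM in TS, 220 to 307 CPM in XEN and 9883 to 10370 CPM in ES libraries.

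As background, the outer epithelium of the blastocyst, the trophectoderm, pumps sodium inward with a basolateral Na,K-ATPase, and water follows the salt across the cells. Tight junctions between the cells keep the fluid in. The pump is built from a catalytic alpha subunit and a beta subunit that carries alpha to the membrane, and mouse embryos without Atp1b1 fail to form a blastocoel. Aquaporins are membrane channels for water: in mouse blastocysts Aqp9 protein is known from the apical side of the trophectoderm and Aqp3 and Aqp8 from the basolateral side. Aqp3 and Aqp9 are aquaglyceroporins that also pass glycerol, Aqp8 also passes hydrogen peroxide and ammonia, Aqp1 is a water channel of red cells, vessels and kidney tubules, and Aqp11 is a distant family member found inside the cell.

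The genes lie on 5 chromosomes in the GENCODE annotation of GRCm38, while the counts were made on mm9. Aqp3 is at chr4:41092722-41098183 (minus strand), Aqp8 at chr7:123462291-123468004 (plus), Aqp9 at chr9:71110659-71168682 (minus), Aqp1 at chr6:55336432-55348555 (plus) and Aqp11 at chr7:97724006-97738289 (minus). Atp1b1 is at chr1:164437109-164458355 (minus) and Atp1b3 at chr9:96332655-96364442 (minus).

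The promoters of Aqp8 and Aqp1, both called higher in XEN than in TS and ES lines, are shown with that of Aqp3, which was nearly silent in XEN lines. Each sequence runs from 250 bases before to 50 bases after the start site, 5′ to 3′ on the gene's strand, from RefSeq on GRCm38.p6, at chr7:123462044-123462343 (plus strand), chr6:55336049-55336348 (plus) and chr4:41098134-41098433 (minus). Capitals mark the letters GGAATG, the core of the TEAD motif. TEAD4 is a transcription factor needed for trophectoderm.
Aqp8: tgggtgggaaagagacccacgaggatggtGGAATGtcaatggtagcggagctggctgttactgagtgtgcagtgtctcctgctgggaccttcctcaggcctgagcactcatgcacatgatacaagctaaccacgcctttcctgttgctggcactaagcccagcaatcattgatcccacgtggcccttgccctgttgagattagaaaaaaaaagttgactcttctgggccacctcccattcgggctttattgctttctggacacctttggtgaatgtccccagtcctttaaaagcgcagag
Aqp1: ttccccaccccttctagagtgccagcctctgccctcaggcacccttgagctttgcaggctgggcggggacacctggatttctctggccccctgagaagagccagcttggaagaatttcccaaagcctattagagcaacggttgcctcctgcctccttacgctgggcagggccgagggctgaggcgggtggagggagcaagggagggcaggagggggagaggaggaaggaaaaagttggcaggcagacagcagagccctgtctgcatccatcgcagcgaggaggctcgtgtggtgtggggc
Aqp3: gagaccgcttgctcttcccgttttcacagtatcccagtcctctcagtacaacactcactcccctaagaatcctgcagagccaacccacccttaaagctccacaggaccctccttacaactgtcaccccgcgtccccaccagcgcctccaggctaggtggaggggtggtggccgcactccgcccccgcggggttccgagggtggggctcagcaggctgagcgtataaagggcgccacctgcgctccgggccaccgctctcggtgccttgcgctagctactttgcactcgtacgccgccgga

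The GGAATG core was searched on both strands of all member promoters, as was the letter string AGATAA of GATA factors, and Aqp9 and Atp1b3 have 2 promoters each. The search found 1 match, GGAATG on the plus strand of Aqp8, 221 bases before the start site. GGAATG occurs in 14.7% of 32851 mouse promoters of this length and AGATAA in 11.2%, so a match or its absence in one promoter describes letters only. The promoters differ more in base composition. G and C make up 52.0% of the Aqp8 promoter, 62.7% of Aqp1, 64.0% of Aqp3 and 68.0% of Aqp11, with 6, 8, 21 and 27 CpG dinucleotides in that order of genes. The Aqp9 promoters are at 41.3% and 43.7% with 1 and 4 CpG. Those of the pump subunits are at the other end, with 71.0% and 31 CpG for Atp1b1 and 76.0% and 74.7% with 34 and 39 CpG for Atp1b3. The median over all promoters is 52.7% and 7 CpG.

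Embryos without Nanog kept high Aqp3 and Aqp9, the aquaporins with the highest levels in embryos, and kept both pump beta subunits, while Aqp8 was almost absent from them. Of the 7 genes, 6 passed the low-count filter and were tested in embryos. None of the 6 was called between Nanog-null and Nanog-bearing embryos by edgeR's quasi-likelihood test at a Benjamini-Hochberg adjusted p under 0.05, where 0.0154% of 12965 genes were called. By unadjusted p under 0.05 the test gave 1 of 6, Aqp8, against 4.97% of all genes, and DESeq2 called 1, again Aqp8, where it called 140 genes or 0.975%. By ranges, Aqp8 was again the single tested member with no overlap, lower in all nulls, as were 4.21% of all tested genes, while 1.11% were higher in all nulls.

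**Figure D1:**
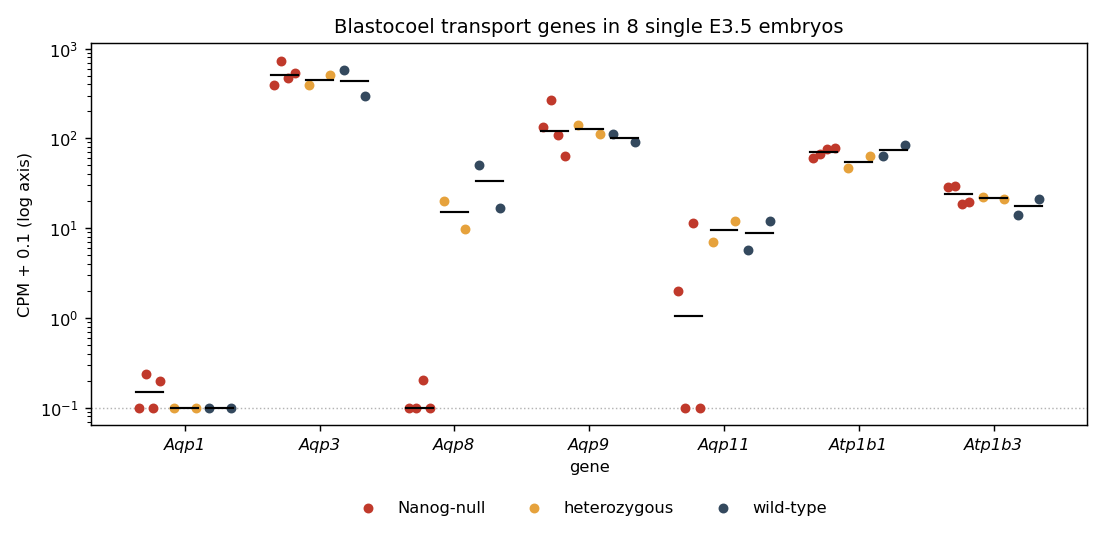
CPM plus 0.1 of the 7 genes (log axis) in each embryo, with Nanog-null, heterozygous and wild-type embryos side by side and a bar at each group's median. Points on the dotted line are embryos with 0 counts. Aqp8 separates the nulls (at most 0.104 CPM) from the others (at least 9.62 CPM), and Aqp3 does not.

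Aqp3 led the aquaporins in every embryo. It had 397, 733, 467 and 539 CPM in null F1, F2, M1 and M2, 390 and 514 CPM in the female and male heterozygous embryos, and 573 and 298 CPM in the female and male wild-type embryos. The groups overlapped, with the highest value in a null and the lowest in a wild-type embryo. The log2 fold change, null against Nanog-bearing, was 0.40 ± 0.29 (SE), with an adjusted p of 0.965 in edgeR's quasi-likelihood test. Per kilobase of its longest coding transcript Aqp3 averaged 302.5 ± 82.0 CPM in nulls (SD, n = 4), 256 ± 49.7 CPM in heterozygous (n = 2) and 247 ± 110 CPM in wild-type embryos (n = 2), well above the next member, Aqp9.

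Aqp9, the apical channel, had 134, 266, 108 and 63.3 CPM in null F1, F2, M1 and M2, 141 and 111 CPM in heterozygous embryos (female, male) and 112 and 90.7 CPM in wild-type embryos (female, male). The nulls held both the highest and the lowest value. The log2 fold change was 0.32 ± 0.32 (edgeR adjusted p 0.991). Per kilobase the mean was 54.0 ± 32.9 CPM in nulls, 47.5 ± 8.07 CPM in heterozygous and 38.4 ± 5.76 CPM in wild-type embryos (SD, n = 4, 2 and 2). Null F2 was the highest of all embryos in both Aqp3 and Aqp9.

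Aqp8, a basolateral channel, was the exception. It had 0, 0, 2 and 0 counts in null F1, F2, M1 and M2, 468 and 142 counts in heterozygous embryos (female, male) and 1197 and 542 counts in wild-type embryos (female, male). These are 0.104 CPM in null M1, 20.1 and 9.62 CPM in heterozygous and 50.7 and 16.8 CPM in wild-type embryos. All 4 nulls lay below all 4 Nanog-bearing embryos, and within each Nanog-bearing genotype the female was the higher of the pair. A count of 0 allows up to 3 counts, which is 0.183, 0.137 and 0.150 CPM in null F1, F2 and M2.

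Pooled over embryos, Aqp8 had 2 counts in nulls, against 610 in heterozygous and 1739 in wild-type embryos. As rates per total count, heterozygous embryos had 622 times the null rate, with a 95% interval of 171 to 5144, and wild-type embryos 1207 times, with an interval of 333.5 to 9972 (exact, counting error only). The fitted log2 fold change of Aqp8 depends on edgeR's prior count and is no bound. It was -8.72 ± 1.54 (SE) against heterozygous embryos and -9.84 ± 1.59 against wild-type embryos, with adjusted p-values of 0.919 and 0.347 in edgeR's quasi-likelihood test. Against heterozygous and against wild-type embryos 0.00771% and 0.0154% of genes were called, none of them a member. Unadjusted p was under 0.05 for 1 of the 6 members in each comparison, where 2.75% of genes passed against heterozygous and 3.86% against wild-type embryos, and DESeq2 called 1 in each, Aqp8 every time, where it called 0.729% and 0.905% of genes. Both comparisons use the same nulls. Aqp8 was also the 1 member without overlap in each. Of all genes 9.51% lay wholly lower and 2.92% wholly higher in nulls than in heterozygous embryos, and 11.3% lower and 3.82% higher than in wild-type embryos.

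The edgeR call for Aqp8 depended on the low-count filter, which Aqp8 passed only through the Nanog-bearing embryos. Without it edgeR's adjusted p was 3.84e-06 against Nanog-bearing, 2.45e-06 against wild-type and 5.24e-05 against heterozygous embryos, and DESeq2 gave 2.84e-11, 2.00e-10 and 1.02e-07 for the same comparisons. The fold change stayed at -8.41 without null F1 and M2 (a setting chosen after seeing the data), with an edgeR adjusted p of 0.903. Null F1 and M2 lacked most of the genes that averaged at least 5 CPM in the other embryos. Null F2 and M1 also lacked more of such genes than any Nanog-bearing embryo, and the part of library dropout in the Aqp8 values was not tested.

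Most primitive endoderm and epiblast markers were also lower in nulls, without a call by edgeR. Of all 12965 tested genes 6845 were lower in nulls and 4.97% had an unadjusted p under 0.05 in edgeR, and DESeq2 called 0.975% of its genes. Of 17 primitive endoderm markers tested, 16 were lower in nulls, with a median log2 fold change of -2.99 (all tested genes -0.05). Of these markers 10 had an unadjusted p under 0.05, but edgeR called none after adjustment, and DESeq2 called 3 (Lama1, Lamb1 and Srgn). Their summed level was 1230 to 2058 CPM in nulls and 1988 to 3037 CPM in Nanog-bearing embryos, with Foxa2 and Srgn at 0 in nulls and Sox7 and Foxa2 at 0 in Nanog-bearing embryos. Lamb1, a laminin chain, had the smallest p (log2 fold change -2.46 ± 0.43, edgeR adjusted p 0.68), followed by Sparc, a matrix protein (-2.18 ± 0.63, adjusted p 0.931). Of 14 epiblast markers tested, 10 were lower in nulls, with a median of -0.46 and 3 at an unadjusted p under 0.05. edgeR called none of them after adjustment, and DESeq2 called 2, Fgf4 and Spp1. Their summed level was 3180 to 5311 CPM in nulls and 4130 to 5021 CPM in Nanog-bearing embryos, with Nr0b1 at 0 in nulls. DESeq2 also called Laptm5 of the blood and endothelial list and Fbln5 of the fibroblast list, where edgeR called none. Of 7 blood and endothelial markers tested, 6 were higher and 1 lower in nulls (median log2 fold change 1.51). Of 7 fibroblast markers tested, 4 were higher and 3 lower (median 2.53). Fibroblast markers summed to 16.5 to 74.4 CPM in nulls, with 0 of 10 genes at 0 counts. They summed to 92.3 to 221 CPM in Nanog-bearing embryos, with 6 genes at 0 counts. The part of these cells in the Aqp8 difference was not tested, and in whole embryos fewer cells of a type and less RNA per cell cannot be told apart.

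Aqp11 was uneven among nulls: 31, 0, 216 and 0 counts in null F1, F2, M1 and M2, or 1.89, 0, 11.2 and 0 CPM. Heterozygous embryos had 6.83 and 12.0 CPM (female, male) and wild-type embryos 5.54 and 11.9 CPM. Null M1 lay within the Nanog-bearing range and the other 3 nulls lay below it. The log2 fold change was -1.85 ± 1.88 (edgeR adjusted p 0.991). Null M1 was also the null library that lacked the fewest of the genes averaging at least 5 CPM in the other embryos. The part of library dropout in the Aqp11 values was not tested.

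Aqp1 was at or near 0 in all embryos, with 0, 3, 0 and 2 counts in null F1, F2, M1 and M2 and 0 counts in each heterozygous and wild-type embryo. It did not pass the filter and was not tested by edgeR. Pooled, it had 5 counts in nulls and 0 in Nanog-bearing embryos. The exact 95% interval of the null rate over the Nanog-bearing rate began at 1.11, covering counting error only and not the spread between embryos. DESeq2 gave an unadjusted p of 0.370 for this comparison. Blood and endothelial markers, which mark cells that carry Aqp1 in adult tissue, summed to 29.8 to 72.5 CPM in nulls and 43.5 to 72.2 CPM in Nanog-bearing embryos.

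The pump subunits varied least among the tested members, with an SD of log2 CPM over the 8 embryos of 0.28 for Atp1b1 and 0.36 for Atp1b3, against 0.40 for Aqp3, 0.53 for Aqp9, 2.80 for Aqp11 and 3.79 for Aqp8. Atp1b1 had 60.6, 66.2, 76.4 and 77.4 CPM in null F1, F2, M1 and M2, 47.1 and 63.3 CPM in heterozygous embryos and 63.5 and 83.5 CPM in wild-type embryos (female, male). The nulls lay inside the Nanog-bearing range, and the log2 fold change was 0.27 ± 0.28 (edgeR adjusted p 0.996). Atp1b3, the second beta subunit, had 28.5, 29.6, 18.6 and 19.7 CPM in null F1, F2, M1 and M2, 21.9 and 21.2 CPM in heterozygous and 13.8 and 21.0 CPM in wild-type embryos (female, male). Both null females lay above all Nanog-bearing embryos, while both null males lay inside their range, and the log2 fold change was 0.40 ± 0.52 (edgeR adjusted p 0.998). Atp1b1 made up 68.0 to 80.4% of the counts of both beta genes in nulls, 68.2 to 74.9% in heterozygous and 79.9 to 82.1% in wild-type embryos.

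None of the 6 tested genes was called between heterozygous and wild-type embryos by edgeR's quasi-likelihood test, where 0% of all genes were called. In edgeR 0 of the 6 had an unadjusted p under 0.05 (0.825% of all genes did), and DESeq2 called 0 of them, where it called 100 genes or 0.588%. With 2 embryos per genotype, the lack of a call does not show that the genotypes are alike. Ranges did not overlap for 2 of the 6, against a background of 16.1% of all genes wholly higher and 18.4% wholly lower in heterozygous embryos. Atp1b1 was lower in heterozygous embryos, with 47.1 and 63.3 CPM, against 63.5 and 83.5 CPM in wild-type embryos. Atp1b3 was higher, with 21.9 and 21.2 CPM in heterozygous embryos, against 13.8 and 21.0 CPM in wild-type embryos. Aqp8 overlapped between these genotypes, with a log2 fold change of -1.12 ± 1.43 (edgeR adjusted p 1.00).

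The share of each aquaporin in the summed aquaporin counts of a library does not depend on scaling, though gene length enters it. Aqp3 took 72.1 to 89.2% of these counts in nulls, 69.5 to 78.7% in heterozygous and 71.1 to 75.2% in wild-type embryos. Aqp9 took 10.5 to 26.4% in nulls, 16.9 to 25.1% in heterozygous and 14.7 to 21.6% in wild-type embryos. Aqp8 took at most 0.0174% in nulls, 1.47 to 3.58% in heterozygous and 4.01 to 6.65% in wild-type embryos. In embryos Aqp8 was therefore a small part of the aquaporin counts also where Nanog was present. Aqp7, an aquaglyceroporin of fat and germ cells, was the only other aquaporin tested, with 17.9, 9.50, 11.8 and 2.05 CPM in null F1, F2, M1 and M2, 3.82 and 6.37 CPM in heterozygous and 20.6 and 1.96 CPM in wild-type embryos (female, male).

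**Figure D2:**
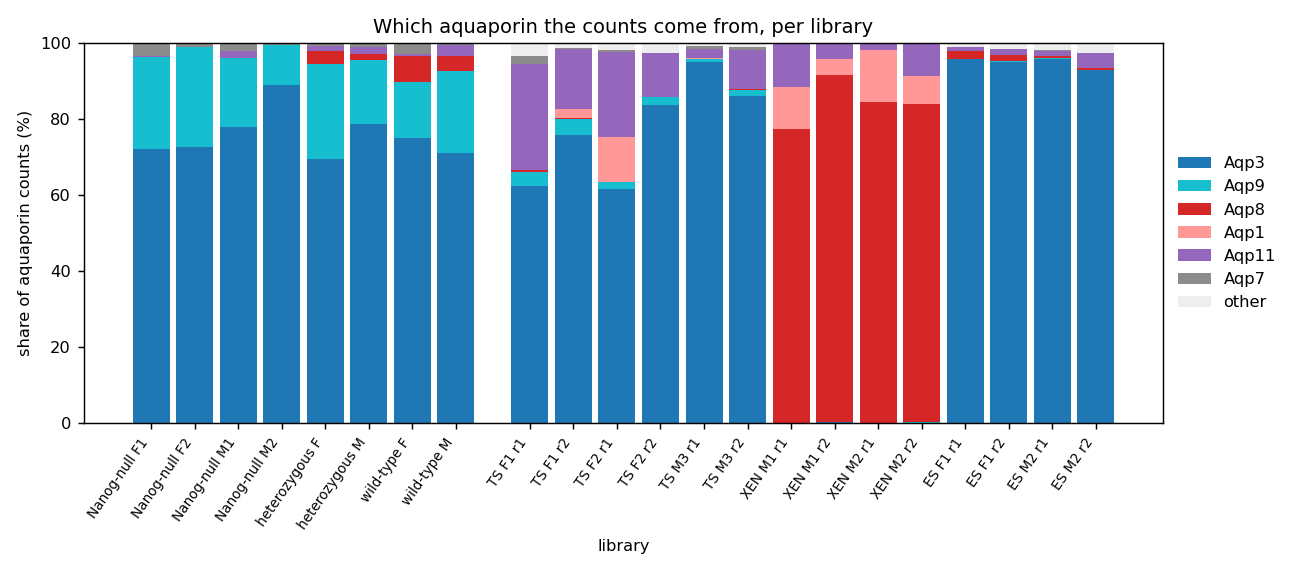
Share of each aquaporin in the aquaporin counts of each library, in percent, for the 8 embryos (left) and the 14 line libraries (right). Aqp3 and Aqp9 fill most of the embryo bars, Aqp8 most of the XEN bars (77.4 to 91.5%, with Aqp1 and Aqp11 next), and Aqp3 most of the ES bars (93.0 to 95.9%).

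The other genes of cavity formation were read in the same embryo comparison, null against Nanog-bearing, and edgeR called none in the lists of this paragraph. Nor did DESeq2, and 0 of the pump genes, 1 of the ion transport genes, 2 of the junction genes and 2 of the adhesion genes had an unadjusted p under 0.05. Of the other sodium pump genes 8 were tested and 3 were higher, with a median log2 fold change of -0.81. The smallest p belonged to Fxyd3, a regulator near 0, which had 0 counts in all nulls, against 17 and 21 counts in heterozygous and 0 and 33 counts in wild-type embryos. Of 8 ion exchangers, channels and carbonic anhydrases tested, 6 were higher, with a median of 0.25. Clcn3, a chloride-proton exchanger of endosomes, had the smallest p (0.97 ± 0.37, adjusted p 0.931). Of 17 tight junction and polarity genes 4 were higher, with a median of -0.20, led by Crb3, an apical polarity protein (0.81 ± 0.32, adjusted p 0.931), and Cldn6, a claudin (0.71 ± 0.32, adjusted p 0.931). Of 12 adhesion and apical membrane genes 3 were higher, with a median of -0.44. Ezr, which links membrane to actin, and Dsp, a desmosome protein, had the smallest p-values there (-1.12 ± 0.33, adjusted p 0.931, and -1.17 ± 0.34, adjusted p 0.931). Of all 12965 tested genes 6120 were higher, with a median of -0.05, and 4.97% had an unadjusted p under 0.05.

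The 10 trophectoderm markers summed to 4065 to 11380 CPM in nulls and 8338 to 11560 CPM in Nanog-bearing embryos, with Krt19 at 0 in the heterozygous embryos. Of 9 markers tested 3 were higher and 6 lower in nulls, with a median log2 fold change of -0.34. Of the 10 trophectoderm factors tested, Cdx2 among them, 7 were higher and 3 lower, with a median of 0.24. edgeR and DESeq2 called none of the markers or factors, and 0 markers and 2 factors had an unadjusted p under 0.05. The part of trophectoderm content in the aquaporin values was not tested. The deposited list of Nanog-regulated genes, the authors' own, holds 78 genes (71 marked DOWN and 7 UP), and none of the 7 genes is among them.

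The aquaporins present differed between TS, XEN and ES lines. XEN lines carried mostly Aqp8, with less Aqp1 and Aqp11 and almost no Aqp3 or Aqp9. ES lines carried the most Aqp3, and TS lines had less of it and only traces of Aqp9. Technical replicates were summed per line before testing, so n is 3 TS, 2 XEN and 2 ES lines, and lines differ in sex, medium and derivation along with lineage, which cannot be told apart.

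**Figure D3:**
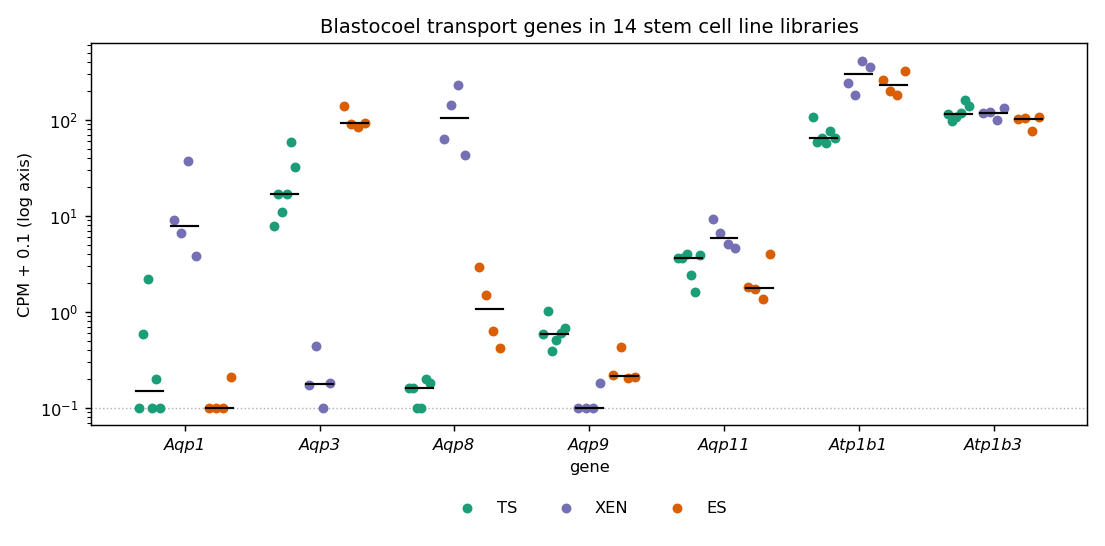
CPM plus 0.1 of the 7 genes (log axis) in each line library, with TS, XEN and ES libraries side by side and a bar at each group's median. Points on the dotted line had 0 counts. Aqp8 and Aqp1 are highest in XEN libraries, Aqp3 in ES libraries, and Atp1b3 is nearly level.

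Aqp3 had 12.2, 14.0 and 44.1 CPM in TS F1, F2 and M3, 0.239 and 0.0311 CPM in XEN M1 and M2 and 113 and 88.5 CPM in ES F1 and M2. The 3 lineages did not overlap, in the order ES, TS, XEN. The XEN values rest on 10 counts in all libraries together. The log2 fold change was -2.00 ± 0.64 for TS against ES (edgeR adjusted p 0.0394), 7.10 ± 1.00 for TS against XEN (adjusted p 0.00179) and -9.11 ± 1.07 for XEN against ES (adjusted p 0.000688). The call for TS against ES was lost in 6 of 14 alternative settings, among them leaving out TS F1, TS F2, ES F1 or ES M2, with adjusted p-values up to 0.185.

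Aqp8 had 0.0612, 0 and 0.0908 CPM in TS F1, F2 and M3, 114.5 and 159 CPM in XEN M1 and M2 and 2.07 and 0.423 CPM in ES F1 and M2. XEN lay above ES and ES above TS, with no overlap. The counts were 4 in TS, 9438 in XEN and 44 in ES libraries. The log2 fold change was -4.39 ± 0.90 for TS against ES (edgeR adjusted p 0.00815), -11.51 ± 0.79 for TS against XEN (adjusted p 0.000102) and 7.12 ± 0.73 for XEN against ES (adjusted p 0.000388). The call for TS against ES was lost in 3 of 14 alternative settings: the adjusted p was 0.0625 without ES F1, which holds most of the ES counts, and 0.192 and 0.193 in limma voom with and without a replicate block.

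The 2 technical replicate libraries of each XEN line differed in Aqp8. XEN M2 had 234 and 43.5 CPM in its technical replicates 1 and 2, a 5.39-fold difference, and XEN M1 had 62.9 and 145 CPM, a 2.30-fold difference. All 4 XEN libraries still lay above every ES library, of which the highest had 2.80 CPM.

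Aqp1 showed the same order of libraries within XEN M2. It had 37.6 and 3.71 CPM in replicates 1 and 2 of XEN M2, 10.1-fold apart, and 9.02 and 6.50 CPM in those of XEN M1. TS lines had 0.245, 0.977 and 0.0454 CPM (F1, F2, M3), of which TS F2 owed all to replicate 1 with 2.12 CPM, and the ES libraries held 1 count in all. XEN lay above both other lineages without overlap. The log2 fold change of TS against XEN was -5.54 ± 1.02 (edgeR adjusted p 0.00536). Aqp1 was also called in XEN against ES (adjusted p 0.00345), where the rate of counts was 552 times higher in XEN with an exact 95% interval of 98.9 to 21830. TS against ES was not called (adjusted p 0.111). Blood and endothelial markers summed to 262 to 1119 CPM in TS, 77.2 to 202 CPM in XEN and 492 to 787 CPM in ES libraries, and their part in the Aqp1 values was not tested.

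Aqp9 was close to 0 in all lines, with 0.704, 0.355 and 0.545 CPM in TS F1, F2 and M3, 0 and 0.0311 CPM in XEN M1 and M2 and 0.230 and 0.106 CPM in ES F1 and M2. These are 43, 1 and 6 counts in TS, XEN and ES libraries. TS against XEN was called (edgeR adjusted p 0.0132). Aqp9 passed the low-count filter only through the TS lines, so the group where it is high decided that it was tested. The rate was 38.9 times higher in TS, with an exact 95% interval of 6.62 to 1571. Aqp9 was tested in only 8 alternative settings for this comparison, fewer than the other called members. The call was lost in 1 of these 8, the fit without XEN M1. Over the 8 settings the log2 fold change ran from 3.66 to 6.74. The other settings gave no test of the call. TS against ES (log2 fold change 1.73 ± 0.83, adjusted p 0.131) and XEN against ES (adjusted p 0.0943) were not called.

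Aqp11 was low everywhere, with 3.52, 3.07 and 2.77 CPM in TS F1, F2 and M3, 7.57 and 4.79 CPM in XEN M1 and M2 and 1.66 and 2.59 CPM in ES F1 and M2. By summed line, XEN lay highest and ES lowest, with no overlap. Single ES and TS libraries overlapped, with 1.256 and 3.952 CPM in replicates 1 and 2 of ES M2 and 1.505 and 3.812 CPM in those of TS M3. Aqp11 was called in XEN against ES (1.88 ± 0.47, edgeR adjusted p 0.0146) and in TS against XEN (-1.26 ± 0.41, adjusted p 0.0450), and not in TS against ES (0.62 ± 0.43, adjusted p 0.277). The TS against XEN call was lost in 10 of 14 alternative settings, with adjusted p-values up to 0.219, and that of XEN against ES in 4 of 14, with values up to 0.141.

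Atp1b1 had 83.0, 61.0 and 70.4 CPM in TS F1, F2 and M3, 203 and 393 CPM in XEN M1 and M2 and 230 and 253 CPM in ES F1 and M2. TS lay below both other lineages, and XEN and ES overlapped. It was called in TS against ES (-1.69 ± 0.29, edgeR adjusted p 0.00398) and TS against XEN (-2.33 ± 0.29, adjusted p 0.00105), and not in XEN against ES (0.65 ± 0.32, adjusted p 0.137). Both calls held in all 14 alternative settings.

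Atp1b3 was nearly level, with 106, 113 and 149 CPM in TS F1, F2 and M3, 120 and 113 CPM in XEN M1 and M2 and 103.5 and 92.1 CPM in ES F1 and M2. It was not called in any line comparison, with log2 fold changes of 0.40 ± 0.22 for TS against ES, -0.19 ± 0.22 for TS against XEN and 0.59 ± 0.24 for XEN against ES (edgeR adjusted p 0.183, 0.542 and 0.0852). The share of Atp1b1 in the counts of both beta genes was thus 31.9 to 48.1% in TS, 60.0 to 80.7% in XEN and 65.9 to 75.2% in ES libraries. Per kilobase the 2 subunits averaged 27.7 ± 4.27 CPM (Atp1b1) and 61.5 ± 11.5 CPM (Atp1b3) in TS lines (SD, n = 3), 116 ± 52.0 and 58.3 ± 2.41 CPM in XEN lines (n = 2) and 93.7 ± 6.26 and 49.1 ± 4.06 CPM in ES lines (n = 2).

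Counted over the 7 genes, 3 were called in TS against ES by edgeR's quasi-likelihood test, all lower in TS, where 41.3% of 14687 genes were called (21.3% higher and 20% lower). In TS against XEN 6 were called, 2 higher and 4 lower, where 36.7% of genes were called (20.3% higher and 16.4% lower). In XEN against ES 4 were called, 3 higher and 1 lower, where 45.1% of genes were called (21.8% higher and 23.4% lower). Aqp9 passed the low-count filter only through TS lines, and Aqp1 and Aqp8 only through XEN lines, where each was highest. The comparisons share lines, so their counts are not independent, and calls were common among all genes. Ranges that did not overlap were more common still among all genes. In TS against ES 3 members lay wholly higher and 3 wholly lower (33% and 37.6% of all genes), in TS against XEN 2 and 4 (40.3% and 19.3%), and in XEN against ES 4 and 2 (27.6% and 52.4%).

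**Figure D4:**
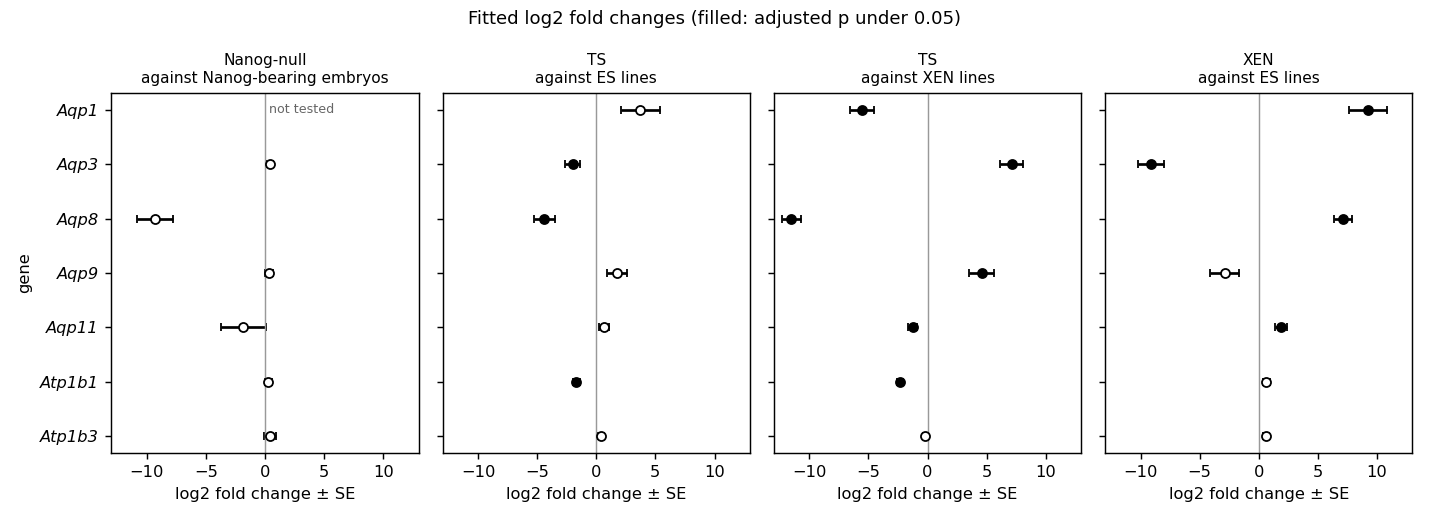
Fitted log2 fold change and SE of each gene in Nanog-null against Nanog-bearing embryos and in the 3 line comparisons, with filled points for an adjusted p under 0.05. Aqp8 lies near -9 in the embryo panel with an open point, and Aqp1, Aqp3 and Aqp8 span the largest changes between lines. Values of genes near 0 counts in one group depend on the prior count.

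Among the other sodium pump genes, FXYD regulators, small membrane proteins that tune the pump, had the smallest p-values between lineages. Of 9 tested, 4 were called higher and 2 lower in TS against ES, where 21.3% and 20% of all genes were. The median log2 fold change was 1.26 (all tested genes 0.02). Fxyd5 was at 22.3 to 48.0 CPM in TS and 0.476 to 0.574 CPM in ES lines (5.95 ± 0.64, edgeR adjusted p 0.000711), while Fxyd3 was at 0.489 to 1.47 CPM in TS lines with 0 counts in ES lines. Atp1b2, a beta subunit of neurons and glia, was lower in TS (-2.99 ± 0.64, adjusted p 0.00942). In TS against XEN 4 were called higher and 1 lower, where 20.3% and 16.4% of all genes were, with a median of 3.60 (all genes 0.02). Fxyd5 and Fxyd6 were higher in TS, and Fxyd3 was lower, with 38.9 to 46.9 CPM in XEN lines (-5.63 ± 0.49, adjusted p 0.000485). In XEN against ES 2 were called higher and 3 lower, where 21.8% and 23.4% of all genes were, with a median of -1.45 (all genes -0.05). Fxyd3 was higher, and Fxyd6 was lower, at 0.0531 to 0.249 CPM in XEN and 156 to 177 CPM in ES lines, as was Fxyd2.

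Genes that seal the epithelium, move other ions or hold cells together were read in the same line comparisons, beside the shares over all genes given above (21.3% called higher and 20% lower in TS against ES). Of 17 tight junction and polarity genes 9 were called higher and 1 lower in TS against ES, with a median of 1.03, led by F11r, a junctional adhesion molecule (2.74 ± 0.25), Pard6b, a polarity scaffold (3.11 ± 0.31), Cldn4, a claudin (2.42 ± 0.33), and Marveld2, tricellulin (3.86 ± 0.53), with edgeR adjusted p-values of 0.000382 to 0.00179. In TS against XEN 7 were called higher and 2 lower (median 0.88), led by Cldn4, the scaffold Tjp3, the polarity kinase Prkcz and Marveld2, and in XEN against ES 6 each way (median 0.38). Of 10 ion exchangers, channels and carbonic anhydrases 5 were called higher and none lower in TS against ES (median 1.51), among them the carbonic anhydrases Car2 (4.42 ± 0.34) and Car4, the scaffold Slc9a3r1 and the anion exchanger Slc4a2. The counts were 2 higher and 2 lower in TS against XEN (median 0.00) and 3 higher and 1 lower in XEN against ES (median 0.74). Of 12 adhesion and apical membrane genes 6 were called higher and none lower in TS against ES (median 0.71), 6 higher and 1 lower in TS against XEN (median 0.81), and 2 higher and 4 lower in XEN against ES (median 0.14). Cdh1, E-cadherin, was lower in XEN than ES (-5.76 ± 0.23, edgeR adjusted p 1.61e-05). Among the other aquaporins Mip, the lens channel, was the only one tested, at 0.861 to 0.899 CPM in ES lines, and was called lower in TS and in XEN than in ES.

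Genes with the pattern most like each member were found by the root mean square difference of centred log2 CPM, over the 7 lines among 8701 genes and over the 8 embryos among 6871 genes. Over the lines these were Lama1 (0.92) and Chst15 (1.44) for Aqp8, Car12 (0.84) and Gata4 (0.96) for Aqp1, and Epb4.1l4a (0.70) and Alpl (0.84) for Aqp3. They were Lrrc1 (0.13) and Vti1a (0.17) for Aqp11, Nek3 (0.24) and Sik1 (0.29) for Aqp9, Phf21a (0.22) and Fzd7 (0.27) for Atp1b1, and Med16 (0.04) and Psmb5 (0.06) for Atp1b3. The Aqp9 pattern over lines rests on 43, 1 and 6 counts in TS, XEN and ES libraries and so depends on the prior count. Lama1, a laminin chain, and Gata4, a transcription factor, are both on the primitive endoderm marker list. Over the embryos the nearest genes to Aqp8 were Serpinh1 (2.14) and Spp1 (2.22), both farther off than any neighbour of another member. Only genes with a mean log2 CPM of 3 or more were candidates, so genes near 0 in all nulls, as Aqp8 was, could hardly enter. The distance of Aqp8 also depends on the prior count. Serpinh1 is on the primitive endoderm list and Spp1 on the epiblast list. Those of Aqp3 were Xpot (0.17) and Npc2 (0.19), and those of Aqp11 were Pja2 (0.79) and F2rl1 (0.82). Aqp9 lay nearest to Otud6b (0.20) and Ccdc47 (0.20), Atp1b1 to Prex2 (0.11) and Rpl27a (0.12), and Atp1b3 to Nsfl1c (0.10) and Ctsd (0.13).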

How the data were processed

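RNA-seq counts per gene symbol were deposited by the authors for all 22 libraries, raw and not normalized (21881 symbols, of which 2722 were 0 in every library). The submitters' processing notes name mm9, TopHat 1.3.1 and edgeR. How reads were counted, with which annotation and strand setting, is not given in the sources used here, so reads of overlapping genes on either strand could not be told apart. A second deposited table gives the authors' direction word per gene, a unit of the kind other. All 22 count columns were mapped to samples.

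CPM were computed from library totals, and per-kilobase levels from the longest protein-coding transcript in GENCODE (GRCm38). edgeR 4.0.16 in R 4.3.3 (robust quasi-likelihood test, TMM, filterByExpr) was fitted to the 8 embryos with genotype and sex as terms, and to the 7 lines with technical replicates summed. P-values were adjusted by Benjamini-Hochberg over 12965 genes in embryos and 14687 in lines, with a threshold of 0.05. The SE was taken as the size of the log2 fold change over the root of its F statistic. Biological coefficients of variation were 0.979 (embryos) and 0.346 (lines). Total counts were 14.8 to 32.2 M (mega-counts) per embryo and 8.20 to 23.7 M per line library. Intervals are exact at 95% and cover counting error only. The fits were tested on simulated data. Alternatives used DESeq2 1.42.0, limma 3.58.1, other scaling, no filter, no sex term, single technical replicates and left-out libraries.

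The members, lists and rules were chosen with earlier results of these data known. Named were the 7 members, Nanog and, from each list, up to 4 called genes by smallest p, or up to 2 where fewer than 2 were called. Nearest patterns were sought where mean log2 CPM (prior count 2) was 3 or more. Lama1, Srgn, Fgf4, Spp1, Nr0b1, Laptm5, Fbln5, Cdx2, Foxa2, Sox7 and Krt19 were named after their values were seen. Protein sequences were not used here, and some genes that the rule names are not reported here.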

Additional observations from a re-analysis of the deposited data

Results flagged for a closer look

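Of 32 groups of 4 to 10 libraries or embryos examined, 9 had a value far from the others of its group by Dixon's test at 95%. For independent values chance flags about 1 group in 20 at that level, but technical replicates of one line are not independent. Of the flags, 3 are 1 or 2 counts in a group otherwise at 0, where any count would be flagged (Aqp8 in nulls, Aqp1 in ES and Aqp9 in XEN libraries). In embryos these were Aqp8 in null M1 at 0.104 CPM (2 counts, where the other nulls had 0) and Aqp11 in null M1 at 11.2 CPM (the next null had 1.89 CPM). In the line libraries, Aqp1 stood apart in replicate 1 of XEN M2 at 37.6 CPM, in replicate 1 of TS F2 at 2.12 CPM and in replicate 2 of ES M2 at 0.107 CPM. Aqp9 did so in replicate 2 of XEN M2 at 0.0790 CPM and in replicate 2 of ES F1 at 0.325 CPM, Aqp11 in replicate 2 of ES M2 at 3.95 CPM and Atp1b3 in replicate 1 of ES M2 at 76.95 CPM, the lowest ES library for it.

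Atp1b3 went opposite ways in the sexes: both null females (28.5 and 29.6 CPM) lay above both Nanog-bearing females (21.9 and 13.8 CPM), and both null males (18.6 and 19.7 CPM) lay below both Nanog-bearing males (21.2 and 21.0 CPM). The difference of the effects, male minus female, was -0.73 on the log2 scale. It did not pass edgeR's quasi-likelihood interaction test (unadjusted p 0.456, adjusted p 1.00).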

How the results depend on the processing

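Of 588 recomputed fold changes, 546 kept their direction and side of the threshold, 24 lost a call, 9 gained one and 9 changed sign. Of the 13 calls in lines, 8 held in every alternative. The count of members called in Nanog-null embryos, 0, became 1 (Aqp8) with DESeq2 and without the low-count filter in each null comparison, and stayed 0 with any embryo left out and, an alternative chosen after seeing the data, without null F1 and M2. DESeq2 called 140, 145 and 124 genes, and edgeR without the filter 50, 37 and 19, for nulls against Nanog-bearing, wild-type and heterozygous embryos, and 100 and 4 for heterozygous against wild-type. The cause was not tested.

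With each line left out in turn, the members called were 1 to 3 for TS against ES (1 without ES F1), 4 to 6 for TS against XEN and 3 to 5 for XEN against ES. In the left-out fits a lone line was assumed to vary like the other groups. Signs changed, without a call, among left-out embryos: Aqp9 null against heterozygous ran from -0.15 to 0.39, and heterozygous against wild-type ran from -0.35 to 0.62 for Aqp3, -2.12 to 0.42 for Aqp8, -0.56 to 0.76 for Aqp11 and -0.16 to 0.87 for Atp1b3. Atp1b3 in TS against XEN was 0.11 with technical replicate 1 alone.

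Technical replicate numbers mark passages of one line and pair nothing between lines. With the number as a replicate block, limma voom on 14 libraries called 2, 5 and 4 members for TS against ES, TS against XEN and XEN against ES, as it did with no replicate block. Calls were gained for Aqp1 in TS against ES with DESeq2 (adjusted p 0.0499), Atp1b1 in XEN against ES without XEN M1 (0.0200) and Atp1b3 in XEN against ES without TS M3 (0.0142). The values of Aqp1 in embryos and Aqp9 in lines rest on few counts.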
